A study of Mus musculus with 10 samples.

Results

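Control (shCtrl) lung metastatic lines of a mouse esophageal squamous cell carcinoma, 5 in number, were set against the 1 control primary line. These are 6 of the 10 RNA-seq libraries of the series, chosen by their labels. Esophageal squamous cell carcinoma arises in the layered epithelium that lines the esophagus. All 6 lines have the genotype Trp53R172H/- +shCtrl on a mixed background strain, so the mutant Trp53 allele and the hairpin are shared by both groups. The primary line has the tissue label esophagus. Lines 376, 377, 378, 382 and 383 were cultured from metastatic lungs taken at week 8. The lungs were digested with collagenase, and the outgrowing cells were expanded and sorted for the fluorescent protein YFP. The labels do not say whether the 5 lines came from separate mice, how the primary line was handled, or whether it was their parent. The p-values therefore measure only the spread between these libraries.

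Carcinoma cells that settle in another organ meet a different supply of nutrients and growth signals, and cultured lines keep only part of what they expressed in the tissue. Genes that are often read in such lines include junction genes that hold an epithelium together, secreted cytokines, and stress pathways. The transcription factor ATF4 is translated when amino acids are short or the endoplasmic reticulum is overloaded, and it switches on genes of amino acid uptake and synthesis.

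Total counts were 15317280 in the primary library and 11644562 to 14214802 in the metastatic libraries. CPM values are TMM-scaled counts relative to library size, and log2 fold changes are metastatic minus primary from edgeR's quasi-likelihood test, with Benjamini-Hochberg adjusted p-values. Because there was 1 primary library, it was assumed to vary like the 5 metastatic lines, and each gene was also described by whether the primary lay outside the range of all 5. A feature of this primary line and a feature of the primary site cannot be told apart. All 12 squamous markers were measured in all 6 libraries, with a summed level of 14042 CPM in the primary and 11165 to 17199 CPM in the 5 lines. Krt14 alone made up 9434 CPM of the primary's sum. By gene, the primary lay below all 5 lines for 7 of the 12 (23.4% of all genes) and above all 5 for 2 (24.7%). Their median log2 fold change was 0.83. Of 12 lung epithelial markers only Aqp5 and Hopx were in the table, summed to 48.0 CPM in the primary and 5.51 to 21.9 CPM in the lines. Aqp5 stood at 43.5 CPM in the primary and 1.21 to 15.3 CPM in the metastatic lines. For Hopx the primary lay within the metastatic range. Fibroblast markers had 3 of 10 in the table, summed to 1.99 CPM in the primary and 3.27 to 10.9 CPM in the lines, and 1 of them, Dcn, had 1 count in the primary library and 269 in the 5 lines together (a ratio of 64.3, 95% counting interval from 11.4 to 2550). Immune markers had 2 of 16, Cd68 and Cd14, at 83.0 CPM and 102 to 139 CPM. Endothelial markers had 4 of 10 in the table, of which the 3 tested summed to 5.65 CPM and 3.52 to 5.48 CPM, and red cell and muscle markers 2 of 11, at 1.09 CPM and 2.22 to 4.93 CPM. The part of other cell types in the results was not tested, and in these bulk libraries fewer cells of a type and less RNA per cell cannot be told apart.

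Trp53, which encodes p53, was checked first. It stood at 73.1 CPM in the primary and at 99.9, 101, 93.8, 114 and 129.7 CPM in lines 376, 377, 378, 382 and 383. The primary lay below all 5 lines, without passing the test (log2 fold change 0.56, SE 0.23, adjusted p = 0.307, edgeR). Birc5 encodes survivin, which blocks apoptosis and serves in chromosome segregation, and the series title names it. Birc5 stood at 357 CPM in the primary and at 438, 339, 294, 252 and 192 CPM in the same order of lines. The primary lay within the metastatic range, above lines 377, 378, 382 and 383 and below line 376 (log2 fold change -0.24, SE 0.36, adjusted p = 0.809, edgeR). The log2 fold change of Birc5 ran from -0.41 to -0.11 when 1 line was left out.

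Of 12523 genes tested, 80 passed the edgeR test at an adjusted p under 0.05, which is 0.639% of them. Of these, 31 were higher in the metastatic lines (0.248%) and 49 were lower (0.391%), and in all 80 the primary lay outside the range of the 5 lines with a fitted difference of at least 2-fold. The position of the primary alone marked many more genes. It lay below all 5 lines for 2932 genes (23.4%) and above all 5 for 3089 (24.7%), which makes 48.1% outside the range. With a 2-fold difference as well, it was below all 5 for 836 genes (6.68%) and above all 5 for 638 (5.09%), or 11.8% together. At an unadjusted p under 0.05 edgeR gave 1821 genes (14.5%), 937 higher (7.48%) and 884 lower (7.06%). DESeq2 called 510 genes (4.07%; 342 higher, 2.73%, and 168 lower, 1.34%), including 77 of the 80. Limma voom called 94 (0.751%; 17 higher, 0.136%, and 77 lower, 0.615%), including 64 of the 80. Which lines were used moved the number of edgeR calls, to 14 without line 377, 40 without line 378 and 234 without line 376, which kept all 80, against 66 without line 382 and 75 without line 383. In data simulated for this comparison with 12358 genes, edgeR recovered 51 of 69 genes given a 4-fold change but 6 of 74 given a 2-fold change, so at this size edgeR's test misses most 2-fold differences.

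Among genes with a mean of at least 5 CPM, those farthest above the primary included secreted signals. Il1a encodes interleukin-1 alpha, an inflammatory cytokine of epithelial cells. It stood at 0.385 CPM in the primary and at 40.4, 63.7, 45.6, 51.9 and 38.8 CPM in lines 376, 377, 378, 382 and 383. All 5 lines were far above the primary, and the log2 fold change was 6.93 (SE 0.52, adjusted p = 0.00187, edgeR). Pdgfb, a subunit of platelet-derived growth factor, had no count in the primary and 6.27 to 9.298 CPM in the 5 lines. With 3 counts taken as the floor of the primary library, it was at least 38.2-fold higher in the metastatic lines (adjusted p = 0.00845, edgeR). Csf3, which encodes the granulocyte growth factor G-CSF, stood at 6.74 CPM in the primary and 99.3, 77.2, 98.8, 98.8 and 45.5 CPM in the lines in the same order. Line 383 was the lowest of them and still well above the primary (3.64, SE 0.51, adjusted p = 0.0226, edgeR). Nppb, the B-type natriuretic peptide, was at 0.514 CPM against 5.52 to 11.4 CPM (3.92, SE 0.61).

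Several of the genes that were higher belong to epithelial cells. Ehf, an ETS-family transcription factor of epithelia, was at 0.963 CPM in the primary and 23.6, 17.6, 26.5, 23.7 and 17.6 CPM in the 5 lines (4.49, SE 0.44, adjusted p = 0.00845, edgeR). Crb3, a polarity protein of the apical membrane, was at 0.514 CPM and 8.81, 9.298, 7.604, 11.05 and 10.7 CPM (4.18, SE 0.48). Mall, a membrane protein of lipid rafts, had 1 count in the primary library and 5.76 to 9.63 CPM in the lines, a ratio of 110 (95% counting interval from 19.6 to 4336). The groups were separated by several-fold gaps in each of these genes. Tmem176a and Tmem176b are neighbouring genes for membrane proteins. Tmem176b was at 9.31 CPM against 80.7 to 130.1 CPM and Tmem176a at 6.55 CPM against 41.2 to 96.5 CPM. Tmem125 (1.09 against 12.7 to 24.3 CPM), Elmo3 (1.48 against 9.72 to 14.6 CPM) and Dock11 (0.771 against 7.06 to 12.6 CPM), complete the 12 by rule. The calls for Il1a, Pdgfb, Mall, Ehf and Tmem176b held whichever line was left out. Limma voom did not call Mall, Tmem125, Nppb, Dock11, Tmem176a and Elmo3 (adjusted p = 0.0572 to 0.0994). Crb3 and Tmem125 missed the threshold without line 377 (adjusted p = 0.0501 and 0.0553, edgeR). Dock11, Csf3, Tmem176a and Elmo3 lost the call when either 377 or 378 was left out, where edgeR's adjusted p reached 0.0575, 0.0575, 0.0668 and 0.0715. Nppb lost it when any one of 377, 378 and 382 was left out (up to 0.0709).

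Of the 80 calls, 53 met this minimum. Its mean is over 1 primary and 5 metastatic libraries, so it more readily leaves out genes found almost only in the primary. An example is Itga1, at 21.8 CPM in the primary with a mean of 4.22 CPM. Among the genes that met the minimum, those farthest below the primary included a nearly silent one. Gpc3 encodes glypican-3, a cell surface proteoglycan that binds growth factors. It stood at 31.7 CPM in the primary, at 0.0694, 0.0861, 0.148, 0 and 0 CPM in lines 376, 377, 378, 382 and 383, and was called with an adjusted p of 0.000398 (edgeR). All 5 lines were close to 0, and 382 and 383 had no count. Vim encodes vimentin, the intermediate filament of mesenchymal cells, and stood at 376 CPM in the primary and 49.3, 36.9, 65.3, 12.7 and 23.98 CPM in the 5 lines. Lines 382 and 383 were the lowest, and the log2 fold change was -3.32 (SE 0.55, adjusted p = 0.0439, edgeR). Plpp3 and Mgll are lipid hydrolases, a phosphatase of lysophosphatidic acid and the lipase of monoacylglycerols. Plpp3 was at 91.6 CPM against 4.63 to 12.99 CPM, and Mgll at 75.4 CPM against 3.77 to 10.7 CPM. Neither gene had a metastatic value near the primary, with log2 fold changes of -3.48 (SE 0.40) and -3.33 (SE 0.36).

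Among the other genes called lower, Ccne1, cyclin E1 of the entry into S phase, was at 47.1 CPM in the primary and 11.8, 11.2, 8.93, 5.78 and 4.93 CPM in the lines (-2.46, SE 0.39, adjusted p = 0.0357, edgeR). Ccnd2, a D-type cyclin, was at 4059 CPM against 1675, 2082, 1542, 1946 and 1837 CPM (-1.16, SE 0.20, adjusted p = 0.0473, edgeR). Every metastatic line lay below the primary by a wide margin in both cyclins. Bmp4, a ligand of the TGF-beta superfamily, was at 17.7 CPM against 3.02 to 5.68 CPM. The transcription factors Nfix, Aff3, Zhx1 and Tcf7l2 stood at 339, 30.8, 25.2 and 434 CPM in the primary. Their highest metastatic values were 112 CPM for Nfix, 3.91 CPM for Aff3, 7.83 CPM for Zhx1 and 150.4 CPM for Tcf7l2, the nuclear partner of beta-catenin. Serpini1, an inhibitor of serine proteases, was at 28.0 CPM against 0.603 to 3.17 CPM, Gjc1, a connexin, at 55.4 CPM against 5.19 to 10.7 CPM, and Cdyl2 at 30.6 CPM against 3.4 to 7.87 CPM. Gpc3, Serpini1, Aff3, Mgll and Gjc1 passed whichever line was left out. When only genes with a mean of at least 5 CPM were tested, Vim, Ccne1, Zhx1 and Bmp4, and Nppb, Dock11 and Tmem176a of the genes called higher, lost the call (edgeR adjusted p from 0.0515 to 0.0764). Plpp3 lost the call without line 377 (adjusted p = 0.0540, edgeR). Ccne1, Cdyl2 and Nfix lost it when either 377 or 378 was left out, where edgeR's adjusted p reached 0.0798, 0.0790 and 0.0716, and Vim when either 377 or 383 was left out (up to 0.105). Zhx1 lost it when any one of 377, 378 and 383 was left out (up to 0.12), Tcf7l2 when any one of 377, 378 and 382 was left out (up to 0.12), and Bmp4 and Ccnd2 when any one of 377, 378, 382 and 383 was left out (up to 0.0989 and 0.0993). Ccnd2 and Tcf7l2 fall outside the naming rule and were chosen after their values were seen.

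Most cytokine and chemokine genes were lowest in the primary. Of 23 tested members, 3 were called higher (Il1a, Csf3 and Cxcl16, against 0.248% of all genes) and 1 lower (Cxcl12, against 0.391%). The primary lay below all 5 lines for 14 members and above all 5 for 3, against 23.4% and 24.7% of all genes, and 9 were below when only genes with a mean of at least 5 CPM were taken. The median log2 fold change was 1.88 (0.01 over all genes). Cxcl16, a membrane-bound chemokine, stood at 45.7 CPM in the primary and 291, 288, 229.5, 404 and 352 CPM in lines 376, 377, 378, 382 and 383 (2.77, SE 0.35, adjusted p = 0.0194, edgeR). Cxcl12, the ligand of the receptor CXCR4, went the other way, at 19.7 CPM against 0.694, 1.72, 2.81, 1.51 and 2.72 CPM (-3.38, SE 0.49, adjusted p = 0.0269, edgeR). Its mean is under 5 CPM, and it was named after its values were seen. Leaving out line 377 ended both calls, with an edgeR adjusted p of 0.0553 for Cxcl16, and Cxcl12 also lost its call without 378 (up to 0.0809).

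Il23a, a subunit of interleukin-23, stood at 5.59 CPM in the primary and 25.2, 129, 105, 168 and 88.9 CPM in the 5 lines, line 376 being the lowest (adjusted p = 0.111, edgeR). Ccl2, which attracts monocytes, stood at 15.7 CPM and 182, 97.5, 123, 51.8 and 27.1 CPM, and Cxcl1, which attracts neutrophils, at 3.72 CPM and 74.9, 41.4, 37.9, 15.5 and 7.503 CPM. In both, line 376 was the highest and line 383 the lowest of the metastatic lines, and the primary lay below all of them. Il24 stood at 44.4 CPM against 83.6 to 161 CPM. Tnf, the tumor necrosis factor, had no count in the primary and 0.662 to 3.75 CPM in the lines, which is at least 11.7-fold higher with the floor of 3 counts (adjusted p = 0.115, edgeR). Cxcl5, another attractant of neutrophils, was at 15.5 CPM in the primary and 142, 8.52, 15.2, 8.202 and 3.38 CPM in the lines. Line 376 alone lay above the primary, so the groups overlapped. The 6 uncalled genes of this list were chosen after their values were seen.

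The primary was the lowest library for most junction genes of epithelia. Of 26 tested members, Epcam and Crb3 were called higher (0.248% of all genes) and none lower. The primary lay below all 5 lines for 18 members (23.4% of all genes) and above all 5 for 0 (24.7%), with a median log2 fold change of 0.86. Per line the median log2 ratio to the primary was 0.95, 0.79, 0.68, 0.79 and 0.79 in lines 376, 377, 378, 382 and 383. Lines 382 and 383 both lay above the other 3 lines in 9 of the 26 members (2714 of 12523 genes tested). Epcam, an adhesion molecule of epithelial cells, stood at 126 CPM in the primary and 472, 517, 381, 439 and 433 CPM in the lines (1.83, SE 0.23, adjusted p = 0.0194, edgeR, 0.0553 without line 377). Cdh1, which encodes E-cadherin, stood at 10.5 CPM and 34.1, 31.8, 27.8, 38.2 and 44.2 CPM, with an adjusted p of 0.0533 (edgeR). In both genes all 5 lines lay well above the primary. Esrp1, a splicing factor of epithelia, was at 27.4 CPM against 58.9 to 154 CPM, F11r, a tight junction adhesion molecule, at 127 CPM against 228 to 476 CPM, and the claudin genes Cldn1 and Cldn4 at 0.4495 against 1.64 to 5.52 CPM and 0.385 against 2.29 to 13.7 CPM. None of these 4 passed the test (adjusted p = 0.16, 0.192, 0.191 and 0.178, edgeR). St14, the membrane protease matriptase, was at 2.63 CPM against 6.05 to 9.81 CPM without a call (adjusted p = 0.124, edgeR). Its inhibitor Spint2 was called, at 101 CPM against 197 to 233 CPM (1.11, SE 0.19, adjusted p = 0.0473, edgeR), and lost the call when any one of 377, 378, 382 and 383 was left out (edgeR adjusted p up to 0.119). Slpi, a secreted protease inhibitor of mucosal surfaces, was at 10.9 CPM against 84.5, 60.5, 130.3, 160.3 and 96.5 CPM (3.29, SE 0.57, adjusted p = 0.0473, edgeR). Its call was lost when any one of 377, 378 and 383 was left out (edgeR adjusted p up to 0.0887). Apart from Epcam, the genes of this list with values, Spint2 and Slpi were named after their values were seen.

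Of 19 tested mesenchymal genes Vim was called lower (0.391% of all genes) and none higher (0.248%). The primary lay above all 5 lines for 8 (42.1%, against 24.7% of all genes) and below all 5 for 3 (15.8%, against 23.4%). Without line 376 it lay above the remaining lines for 11 and below them for 5. The median log2 fold change was -0.40 (-0.25 without line 383), and the median log2 ratio to the primary was -0.31, -0.55, -0.25, -0.35 and -0.20 in lines 376, 377, 378, 382 and 383. Zeb1, a repressor of Cdh1, stood at 14.1 CPM in the primary and 3.96, 1.55, 6.64, 1.34 and 3.31 CPM in the lines, and Cdh2, which encodes N-cadherin, at 13.5 CPM and 8.33, 2.497, 8.64, 4.94 and 6.33 CPM. Neither passed the test (adjusted p = 0.198 and 0.365, edgeR), although the primary was highest in both. Twist1 was at 33.6 CPM against 24.5 to 32.6 CPM. Snai2, another transition factor, and Fn1, fibronectin, had the primary lowest, at 233 against 239.8 to 399 CPM and 19.4 against 28.6 to 49.7 CPM. Apart from Vim, these genes were chosen after their values were seen.

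**Figure D1:**
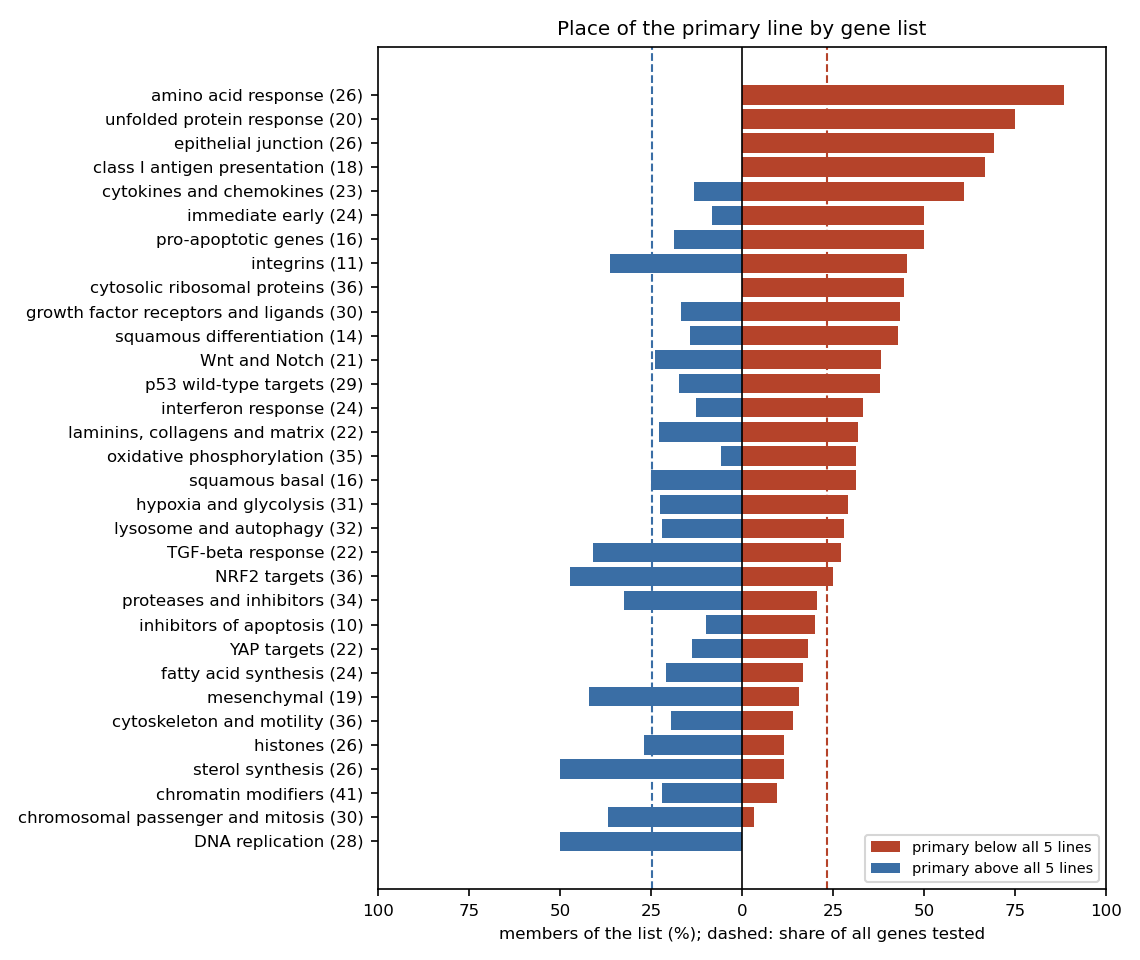
Percentage of the tested members (number in parentheses) of each gene list with at least 10 members for which the primary lay below (red, to the right) or above (blue, to the left) all 5 metastatic lines. Dashed lines mark the same shares over all 12523 genes, 23.4% and 24.7%. The amino acid response list reaches 88.5% below with none above, and DNA replication has 0 below and 50% above.

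The amino acid response list held Atf4, genes of amino acid supply, and stress-induced genes such as Atf3, Ddit3 and Trib3. It had the largest share of members with the primary lowest among the lists with at least 10 tested members. The primary lay below all 5 lines for 23 of its 26 members (88.5%, against 23.4% of all genes) and above all 5 for 0, and 17 of the 23 were also 2-fold apart (6.68% of all genes). No member passed the edgeR test or limma voom. At an unadjusted p under 0.05 edgeR gave 20 members, all higher in the metastatic lines (7.48% of all genes). DESeq2 called 11, all higher (2.73%). The median log2 fold change was 1.40. By line, the median log2 ratio to the primary was 0.45 in line 376, 1.25 in line 377, 1.41 in line 378, 1.76 in line 382 and 1.46 in line 383. Line 376 was the one nearest to the primary in 19 of the 23 members (82.6%, against 33.4% of the 2932 genes with the primary lowest).

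The promoters of these genes are shown because ATF4 is known to bind an amino acid response element, and the primary was lowest for most members. The motif TGATGNAA was searched on both strands (TTNCATCA on the other) in the 250 bases before the annotated start, with RefSeq sequences of build GRCm38.p6. It was in 6 of the 21 promoters of the list that had a sequence (28.6%), against 954 of 27025 promoters in all (3.53%) and 199 of 9823 promoters of genes tested (2.03%). The list was drawn from known ATF4 targets, so this share is a description. The holders were Atf3, Chac1, Slc7a11, Asns, Fgf21 and Nupr1. In the 4 promoters that follow, printed 5′ to 3′ on the gene's strand, capitals mark the match:
Asns, chr6:7693210-7693459, minus strand: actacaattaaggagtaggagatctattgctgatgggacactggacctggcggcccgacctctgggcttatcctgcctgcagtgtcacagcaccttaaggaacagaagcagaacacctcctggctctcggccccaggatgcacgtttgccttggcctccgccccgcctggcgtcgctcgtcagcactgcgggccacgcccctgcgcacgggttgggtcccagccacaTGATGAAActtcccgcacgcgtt
Chac1, chr2:119350992-119351241, plus strand: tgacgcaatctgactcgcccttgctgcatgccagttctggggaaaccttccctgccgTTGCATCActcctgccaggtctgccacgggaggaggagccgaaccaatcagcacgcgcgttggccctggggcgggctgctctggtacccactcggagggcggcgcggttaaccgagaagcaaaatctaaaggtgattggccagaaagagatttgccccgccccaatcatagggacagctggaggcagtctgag
Atf3, chr1:191183334-191183583, minus strand: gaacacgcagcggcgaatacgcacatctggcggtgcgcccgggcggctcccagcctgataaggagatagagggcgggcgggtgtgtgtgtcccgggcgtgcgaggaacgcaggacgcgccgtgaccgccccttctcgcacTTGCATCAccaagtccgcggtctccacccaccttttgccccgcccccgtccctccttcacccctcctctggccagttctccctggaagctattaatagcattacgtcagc
Nupr1, chr7:126625471-126625720, minus strand: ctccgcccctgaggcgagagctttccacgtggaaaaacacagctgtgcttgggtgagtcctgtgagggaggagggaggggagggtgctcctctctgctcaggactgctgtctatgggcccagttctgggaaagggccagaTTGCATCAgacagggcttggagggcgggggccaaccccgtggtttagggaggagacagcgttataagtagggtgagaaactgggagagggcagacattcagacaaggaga
The match begins 23 bases before the start in Asns, 193 in Chac1, and 110 in both Atf3 and Nupr1. A match of letters does not show that a factor was bound there.

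Transcription factors of the pathway and several of their targets had the primary lowest and line 376 next. Atf4 itself stood at 127 CPM in the primary and 232, 298, 344, 431 and 443 CPM in lines 376, 377, 378, 382 and 383 (log2 fold change 1.46, SE 0.37, adjusted p = 0.128, edgeR). Atf3, a stress-induced repressor, stood at 6.04 CPM and 30.05, 41.8, 46.3, 85.7 and 45.2 CPM (3.04, SE 0.59, adjusted p = 0.0657, edgeR). Ddit3, which encodes the pro-apoptotic factor CHOP, stood at 54.8 CPM and 71.8, 150.4, 218, 219 and 141 CPM. None of the 3 groups of values overlapped, and line 376 was nearest to the primary in each. Trib3, a pseudokinase that dampens ATF4, was at 20.7 CPM against 47.9, 168, 228, 322 and 255 CPM (3.30, SE 0.93, adjusted p = 0.171, edgeR). Nupr1, a small stress-induced nuclear protein, was at 37.6 CPM against 94.9, 176, 253, 353 and 321 CPM, and Chac1, which degrades glutathione, at 13.04 CPM against 20.7, 58.97, 65.6, 102 and 86.7 CPM. The metastatic lines spread widely in these genes, from 47.9 CPM in line 376 to 322 CPM in line 382 for Trib3.

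Enzymes and transporters of amino acids also had the primary lowest, most of them by smaller ratios. Asns, asparagine synthetase, stood at 524 CPM in the primary and 786, 1273, 1364, 1558 and 1495 CPM in the lines (1.31, SE 0.36, adjusted p = 0.167, edgeR). For serine synthesis, Phgdh was at 309 against 370.0 to 545 CPM, Psat1 at 484 against 628 to 1314 CPM and Psph at 134 against 187 to 558 CPM. These 3 enzymes act in sequence, and each had the primary lowest. The mitochondrial folate enzymes Mthfd2 and Aldh1l2 were at 184 against 295, 559, 553, 611 and 449.6 CPM and 4.24 against 13.05, 23.1, 36.02, 54.7 and 52.6 CPM, and Cth, which makes cysteine, at 205 against 255 to 797 CPM. Slc3a2 and Slc7a5 form a transporter of large neutral amino acids. Slc3a2 was at 868 CPM against 999.7, 1316, 1479.8, 2039 and 2189.6 CPM and Slc7a5 at 73.3 CPM against 75.99, 154, 164, 205 and 191 CPM, line 376 being close to the primary in both. Slc7a11, the cystine transporter, was at 125 against 137 to 235 CPM, and Slc7a1 at 45.8 against 46.5 to 64.1 CPM, where the nearest lines almost equalled the primary. The 3 members without the primary lowest were Vldlr (14.6 against 11.5, 27.4, 41.2, 49.9 and 52.6 CPM), Sesn2 (4.37 against 4.16, 16.4, 18.2, 29.4 and 28.98 CPM) and Slc7a3 (1.86 against 0.833, 1.29, 1.18, 1.76 and 2.501 CPM). In Vldlr and Sesn2 only line 376 lay below the primary. Apart from Asns and Slc3a2, the members named here were chosen after their values were seen.

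**Figure D2:**
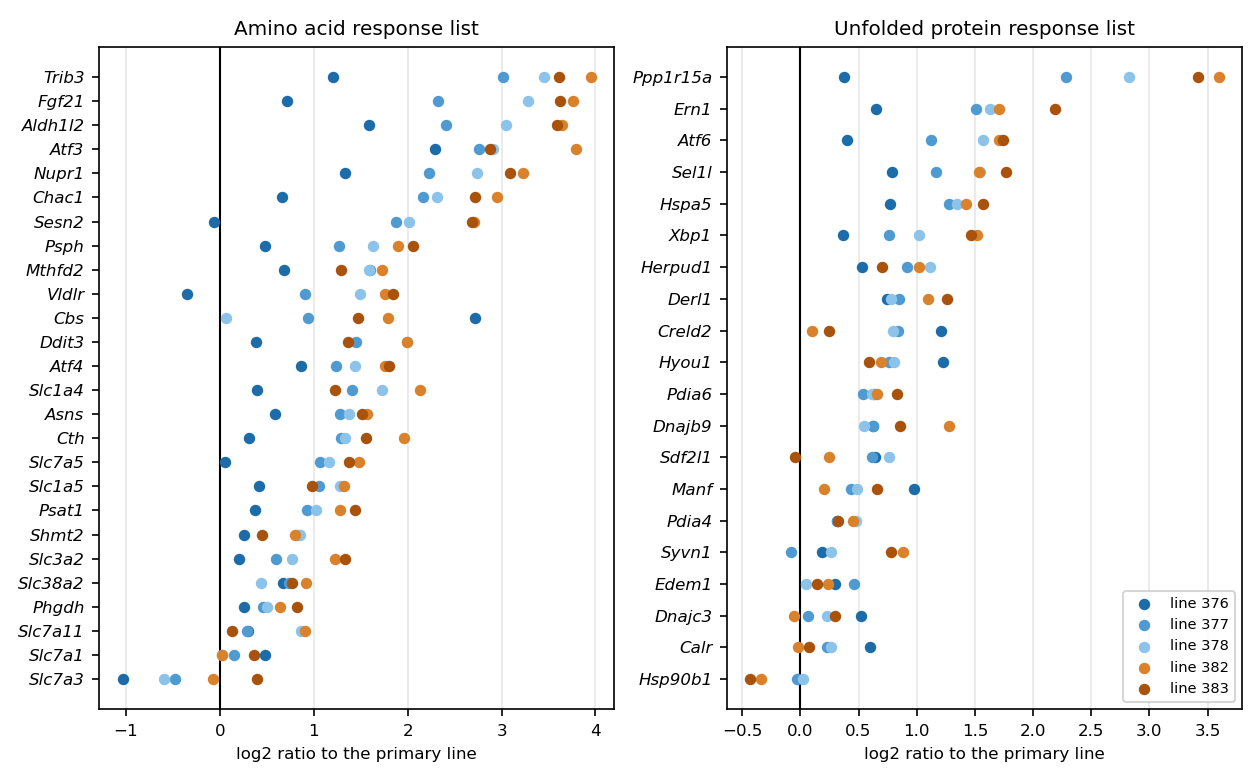
Log2 ratio of each metastatic line to the primary (CPM with a prior count of 2) for the tested members of the amino acid response list (left) and the unfolded protein response list (right), ordered by their median. Each point is a line (blue shades 376 to 378, orange shades 382 and 383) and the black line at 0 is the primary. All 5 lines share that primary, and line 376 is the leftmost point in most of the upper left rows.

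Genes of the unfolded protein response, which refolds or removes proteins in the endoplasmic reticulum, also had the primary lowest for most members. It lay below all 5 lines for 15 of 20 tested members (23.4% of all genes) and above all 5 for 0 (24.7%), and 6 of the 15 were 2-fold apart (6.68%). None passed the edgeR test or limma voom, 11 had an unadjusted p under 0.05, all higher (7.48% of all genes), and DESeq2 called 5, all higher (2.73%). The median log2 fold change was 0.76, and per line the median log2 ratio was 0.61, 0.69, 0.77, 0.79 and 0.74 in lines 376, 377, 378, 382 and 383. Line 376 was nearest to the primary in 9 of the 15 members (60%, against 33.4% of the 2932 genes with the primary lowest), as it was for most of the amino acid list. The medians of the 5 lines lay closer together here than in the amino acid list, and that difference was not tested. The ER stress response element, CCAAT followed after 9 bases by CCACG, is bound by the factors ATF6 and NF-Y and was searched the same way. It was in 8 of 17 promoters of the list with a sequence (47.1%), against 33 of 27025 promoters (0.122%) and 15 of 9823 promoters of tested genes (0.153%). This list too was drawn from known genes of the response, so the share is a description. Hspa5 and Pdia6 are printed as holders with the primary lowest, with the match in capitals:
Hspa5, chr2:34771840-34772089, plus strand: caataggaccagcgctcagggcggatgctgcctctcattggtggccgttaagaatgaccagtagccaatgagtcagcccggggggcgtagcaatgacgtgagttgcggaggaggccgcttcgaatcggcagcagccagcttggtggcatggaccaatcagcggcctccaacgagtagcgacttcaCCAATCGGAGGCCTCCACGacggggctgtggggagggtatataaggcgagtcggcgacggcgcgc
Pdia6, chr12:17266339-17266588, plus strand: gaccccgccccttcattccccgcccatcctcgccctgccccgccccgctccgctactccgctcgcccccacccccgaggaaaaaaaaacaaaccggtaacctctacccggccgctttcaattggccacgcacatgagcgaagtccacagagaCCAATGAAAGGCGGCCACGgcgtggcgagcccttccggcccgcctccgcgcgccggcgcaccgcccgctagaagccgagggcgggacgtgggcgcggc
The match begins 65 bases before the start in Hspa5 and 98 in Pdia6. Calr, Hsp90b1, Dnajc3 and Syvn1 also hold it, and in these 4 the primary lay within the metastatic range. The other holders are Derl3 and Creld2.

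Hspa5 encodes BiP, the main chaperone of the endoplasmic reticulum, and stood at 1751 CPM in the primary and 2980.1, 4256, 4438, 4695 and 5182 CPM in the 5 lines (1.30, SE 0.31, adjusted p = 0.115, edgeR). The stress sensors Ern1 and Atf6 were at 1.54 against 2.498, 4.65, 5.09, 5.36 and 7.58 CPM and 14.6 against 19.4, 32.1, 43.8, 48.04 and 49.3 CPM. Xbp1, the factor that the Ern1 product activates by splicing, was at 141 against 182, 239, 287, 404 and 390.0 CPM. In each of these the primary was lowest and line 376 the next. Sel1l and Herpud1, of the removal of misfolded proteins, were at 44.6 against 77.1 to 152 CPM and 405 against 585 to 877 CPM. Ppp1r15a, whose product restores translation after stress, spread widely, at 97.4 CPM in the primary and 127, 473, 692, 1178 and 1041 CPM in the lines. Hsp90b1, another chaperone, had the primary inside the range, at 1177 against 874 to 1196 CPM. Apart from Hspa5 and Hsp90b1, these members were chosen after their values were seen.

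Genes of class I antigen presentation, which shows peptides to T cells, had the primary lowest for 12 of 18 tested members (23.4% of all genes) and highest for 0 (24.7%). H2-K1, a class I heavy chain, was the 1 called, and it was higher (0.248% of all genes). It stood at 94.9 CPM in the primary and 272, 308, 300.5, 337 and 329 CPM in the lines (1.71, SE 0.21, adjusted p = 0.0194, edgeR, 0.0575 without line 377). The metastatic lines lay close together. H2-D1, a near relative with which it could share reads, was at 100.2 against 174 to 216 CPM, Tapbp, which loads peptides, at 51.4 against 89.7 to 125 CPM, and the light chain gene B2m at 127 against 165 to 209 CPM. These 3 did not pass the test (adjusted p = 0.0753, 0.111 and 0.274, edgeR). Psmb8, a subunit of the immunoproteasome, had 2 counts in the primary library and 1.98 to 5.61 CPM in the lines. The ratio was 30.9 (95% counting interval from 8.45 to 256, adjusted p = 0.0539, edgeR). H2-D1, H2-K1, Tapbp and Psmb8 lie on chromosome 17, for which the median over genes was 0.21 higher on the log2 scale. Apart from H2-K1, these class I genes were chosen after their values were seen. The interferon response list had the primary lowest for 8 of 24 members (23.4% of all genes) and highest for 3 (24.7%). Of these 24 members 0 were called, and 6 had an unadjusted p under 0.05 by edgeR (14.5% of all genes), 4 higher and 2 lower. DESeq2 called 1 of the 24 (4.07%). Ifitm3 and Ifi35, both induced by interferon, were at 195 against 193 to 525 CPM and 30.1 against 49.5 to 77.4 CPM.

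Growth factor genes and their receptors were mixed. Of 30 tested members, Pdgfb and Igfbp7 were called higher (0.248% of all genes) and Igfbp5 lower (0.391%). The primary lay below all 5 lines for 13 (43.3%, against 23.4% of all genes) and above all 5 for 5 (16.7%, against 24.7%). Igfbp7, which binds insulin-like growth factors, stood at 70.6 CPM in the primary and 282, 206, 290.4, 290.2 and 253 CPM in the lines (1.90, SE 0.26, adjusted p = 0.021, edgeR, 0.0506 without line 378). Igfbp5 had 82 counts in the primary and none in any metastatic line, which puts it at least 114-fold lower, with 3 counts over the 5 lines as the floor (adjusted p = 0.0473, edgeR). Its call was lost when either 377 or 378 was left out (edgeR adjusted p up to 0.0775). All 5 lines had 0 Igfbp5 counts, so that loss shows no difference between the lines in this gene. The 2 Igfbp genes, of the same family of binding proteins, lay on opposite sides. Egfr, the epidermal growth factor receptor, was at 10.02 against 20.6 to 32.7 CPM, and its ligands Hbegf and Btc at 71.9 against 116 to 144 CPM and 0.385 against 2.64 to 5.36 CPM. The primary was lowest in all 3, without a call (adjusted p = 0.104, 0.116 and 0.0964, edgeR). Vegfa, which drives vessel growth, was at 38.1 against 51.4 to 173 CPM, and Fgfr1 had the primary highest, at 7.32 against 0.902 to 4.28 CPM. Igfbp5 and the 5 genes after it here were named after their values were seen.

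Receptors for the matrix differed from each other in direction. Of 11 integrin genes, Itga1 was called lower (0.391% of all genes). The primary lay above all 5 lines for 4 (24.7% of all genes) and below all 5 for 5 (23.4%). Itga1, the alpha subunit of a collagen receptor, stood at 21.8 CPM in the primary and 0.347, 0.0861, 1.62, 1.004 and 0.515 CPM in the lines (-4.90, SE 0.67, adjusted p = 0.021, edgeR), and passed whichever line was left out. Itga2, the alpha subunit of another collagen receptor, was the reverse, at 5.84 CPM against 29.9, 16.3, 15.9, 26.1 and 22.1 CPM, with an adjusted p of 0.0985 (edgeR). The beta subunits Itgb1 and Itgb5 had the primary highest, at 1004 against 696 to 816 CPM and 73.2 against 24.9 to 43.1 CPM, and Itgb6 had it lowest, at 20.4 against 40.6 to 77.5 CPM. Itga6 was at 465 against 254 to 354 CPM. Of 22 matrix genes none was called, against 8 at an unadjusted p under 0.05 by edgeR (14.5% of all genes) and 2 called by DESeq2 (4.07%). Lama3, a chain of the laminin that epithelial basal cells attach to, had the primary lowest, at 144 against 217 to 351 CPM. Of 34 proteases and inhibitors 1 was called (0.639% of all genes). Adam8, a membrane metalloprotease, was higher, at 5.202 CPM against 29.9, 30.7, 22.2, 29.7 and 33.2 CPM (2.48, SE 0.32, adjusted p = 0.0194, edgeR, 0.0575 without line 377). Itga1, Itga2, Itgb5 and Itgb6 were named after their values were seen.

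Antioxidant and detoxification genes controlled by NRF2 lay on both sides of the primary. Of 36 tested members none was called by edgeR or limma voom and DESeq2 called 2. At an unadjusted p under 0.05 edgeR gave 3 higher (7.48% of all genes) and 8 lower (7.06%). The primary was highest for 17 members (47.2%, against 24.7% of all genes) and lowest for 9 (25%, against 23.4%). The median log2 fold change was -0.34 (-0.20 without line 383). Aldh3a1, an aldehyde dehydrogenase, stood at 153 CPM in the primary and 20.7, 4.39, 18.1, 10.4 and 1.69 CPM in the lines (-3.78, SE 0.77, adjusted p = 0.0753, edgeR). Gclm, a subunit of the first enzyme of glutathione synthesis, was at 455 against 194, 142, 183, 120.4 and 75.7 CPM, with line 383 the lowest. The glutathione transferases Gsta4 and Gstm1 were at 517 against 94.2 to 314 CPM and 176 against 29.4 to 94.2 CPM, and have relatives with which they could share reads. Gpx2, Hmox1 and Sqstm1 had the primary lowest instead, at 13.4 against 28.03 to 129 CPM, 21.8 against 30.3 to 64.7 CPM and 125 against 183, 373, 426, 1019 and 998 CPM. The ferritin genes Ftl1 and Fth1, with the highest CPM of the list, were at 5544 against 6319.8 to 7619 CPM and 3494 against 3874 to 5645 CPM. Apart from the ferritins, these members were chosen after their values were seen.

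Lists of cell division and sterol synthesis had the primary highest for many members, by amounts that depended on the line. Over all genes tested the primary was highest for 24.7% and lowest for 23.4%. At an unadjusted p under 0.05 edgeR gave 14.5% of all genes, and DESeq2 called 4.07%. For 28 DNA replication genes the primary was highest in 14 and lowest in 0 (21 highest without line 376). The median log2 ratio to the primary was -0.03, -0.19, -0.31, -0.85 and -0.93 in lines 376, 377, 378, 382 and 383. Both lines 382 and 383 lay below all of lines 376, 377 and 378 in 23 of the 28 members (82.1%, against 2885 of 12523 genes tested). None was called by edgeR, DESeq2 or limma voom, and edgeR gave 1 at an unadjusted p under 0.05. Rrm2 and Rrm1, subunits of the enzyme that makes deoxynucleotides, stood at 926 CPM in the primary and 875, 682, 538, 367 and 314 CPM in the lines, and at 519.7 CPM and 354, 457, 405, 307 and 287 CPM. Of 30 mitosis genes the primary was highest in 11 (17 without line 376) and lowest in 1, with a median of -0.28 (-0.17 without line 383), 0 called, 2 at an unadjusted p under 0.05 by edgeR, both lower, and 1 called by DESeq2. Ccnb1, cyclin B1, was at 478 against 359 to 403 CPM, and Cdca8, a partner of survivin in the chromosomal passenger complex, at 334 against 302 to 416 CPM. For 26 sterol synthesis genes the primary was highest in 13 and lowest in 3, and the median log2 ratio was -0.01, -0.14, -0.34, -1.07 and -1.15 in the same order of lines. None was called, 2 higher and 1 lower had an unadjusted p under 0.05 by edgeR, and DESeq2 called 1, which was higher. Acat2, a first step of the pathway, was at 652 CPM against 789, 661, 551, 159.5 and 113 CPM and Mvd at 79.6 CPM against 72.4, 72.3, 54.1, 11.9 and 13.1 CPM, both named after their values were seen. Msmo1 was at 919.6 against 578 to 741 CPM, and Sqle, squalene epoxidase, at 876 against 889.6, 847, 722, 502 and 491 CPM. By these medians lines 382 and 383 lay farther below the primary than lines 376, 377 and 378.

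**Figure D3:**
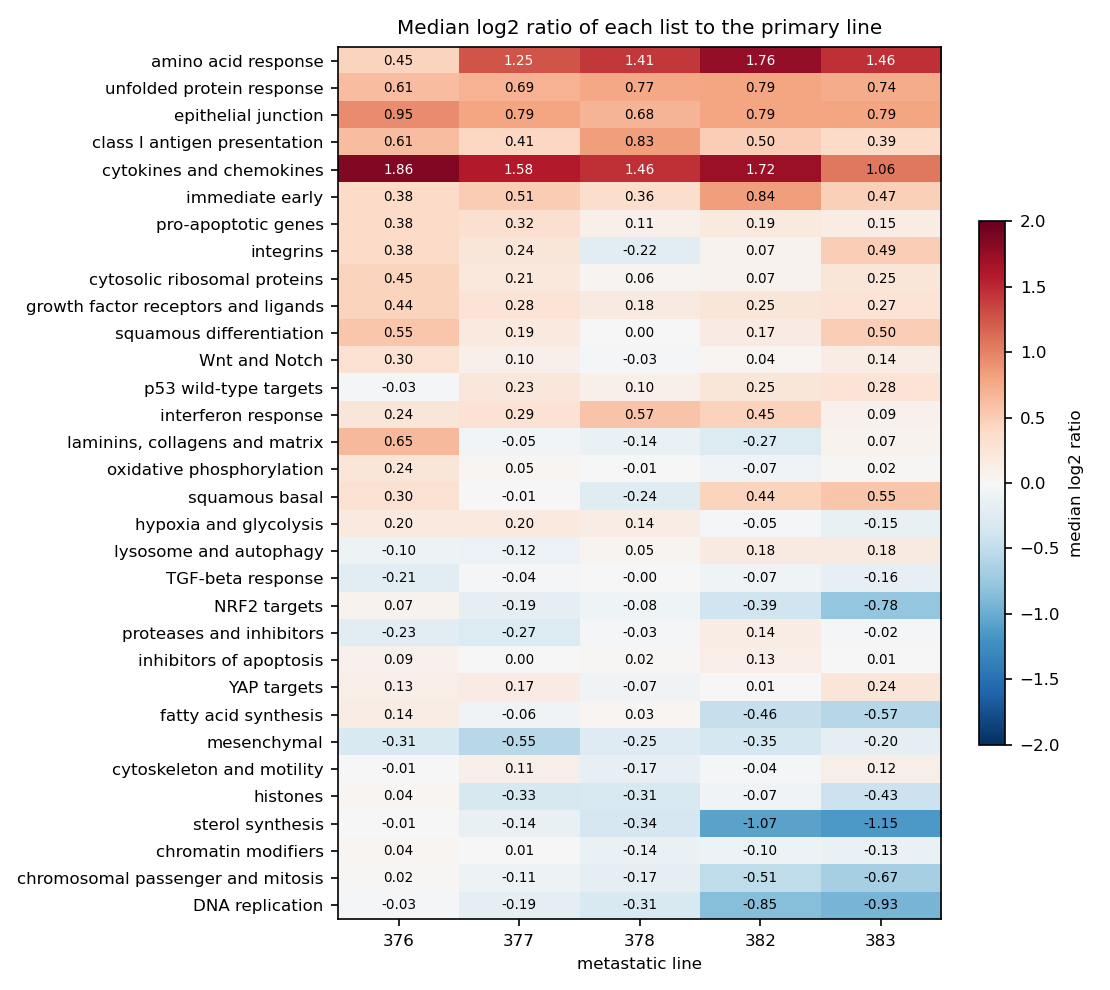
Median log2 ratio to the primary (CPM with a prior count of 2) over the tested members of each gene list with at least 10 members, by metastatic line. Red is above and blue below the primary. The cytokine and epithelial junction lists are positive in all 5 lines, while DNA replication runs from -0.03 in line 376 to -0.93 in line 383 and sterol synthesis from -0.01 to -1.15.

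Squamous identity genes lay on both sides of the primary. Of 16 basal layer genes none was called by edgeR, 8 had an unadjusted p under 0.05 (5 higher and 3 lower) and DESeq2 called 4. Over all genes these last shares were 14.5% and 4.07%, and the primary was lowest for 23.4% and highest for 24.7%. Krt14, the basal keratin, was at 9434 CPM in the primary and 7944, 6458, 5550.5, 6524 and 7167 CPM in the lines. Krt17, a keratin of stressed epithelia, had the primary lowest, at 1153 CPM against 2574, 2182, 1867, 3269.7 and 3588 CPM (adjusted p = 0.195, edgeR). Krt15, another basal keratin, had it highest, at 66.6 CPM against 3.33, 1.64, 12.8, 8.54 and 6.18 CPM (-3.35, SE 0.64, adjusted p = 0.0627, edgeR). The lineage factors Trp63 and Sox2 were at 77.96 against 59.5 to 111 CPM and 38.9 against 16.6 to 29.5 CPM, so the primary was inside the range for the first and highest for the second. Krt5 was at 1062 against 1495, 1074, 814, 643 and 510.4 CPM. Of 14 differentiation genes the primary was lowest for 6 and highest for 2, with Krt6a at 302 against 303 to 704 CPM and Cstb at 284 against 286 to 315 CPM, where the nearest metastatic line nearly equalled the primary. None of that list was called, 2 had an unadjusted p under 0.05 by edgeR and DESeq2 called 1. Krt15, Trp63, Sox2 and Krt5 were named after their values were seen.

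Targets of wild-type p53 were examined because the genotype of every line holds no wild-type allele. Of 29 tested members none was called by edgeR or limma voom. By edgeR 6 higher (7.48% of all genes) and 2 lower (7.06%) had an unadjusted p under 0.05, and DESeq2 called 3 (4.07%). The primary was lowest for 11 (23.4% of all genes) and highest for 5 (24.7%). Cdkn1a, the cell cycle inhibitor p21, stood at 39.1 CPM in the primary and 99.2, 121, 96.4, 184 and 143 CPM in the lines (adjusted p = 0.0964, edgeR). Sesn1 was the reverse, at 70.9 CPM against 26.4, 30.9, 30.05, 16.2 and 16.6 CPM (adjusted p = 0.0914, edgeR). Mdm2, the ligase that degrades p53, was at 95.1 against 76.1 to 105 CPM, with the primary inside the range. Eda2r had no count in the primary and 0.486 to 1.47 CPM in the lines, which is at least 5.18-fold higher with the floor of 3 counts. Plk2 and Perp were at 894 against 925 to 2648 CPM and 1245 against 1050.3 to 1308 CPM. Of 16 pro-apoptotic genes the primary was lowest for 8 and highest for 3, with Cycs at 261 against 236 to 364 CPM and Pmaip1, a BH3-only protein, at 90.7 against 130.1 to 305 CPM. Of 10 inhibitors of apoptosis it was lowest for 2 and highest for 1, with Bcl2l1 at 316 against 296 to 455 CPM. Neither of these lists had a call. At an unadjusted p under 0.05 edgeR gave 3 and 2 of their members, and DESeq2 called 0 and 1. Cdkn1a, Sesn1, Mdm2 and Eda2r were named after their values were seen.

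The remaining lists had 1 call or none. Over all genes tested, edgeR called 0.639%, and the primary was lowest for 23.4% and highest for 24.7%. Of 24 immediate early genes, induced by growth factors, the primary was lowest for 12 and highest for 2, while for Klf6 (751 against 711 to 1649 CPM) and Myc (555 against 421 to 898 CPM) it lay within the range. Of 36 cytosolic ribosomal protein genes it was lowest for 16 and highest for 0, with a small median log2 fold change of 0.22 and Rplp0 at 2445 against 2697 to 2994 CPM. Of 35 oxidative phosphorylation genes it was lowest for 11 and highest for 2 (median 0.05), with Atp5a1 at 903 against 1009 to 1192 CPM. Of 31 hypoxia and glycolysis genes it was lowest for 9 and highest for 7, and Ldhb, a subunit of lactate dehydrogenase, was called higher, at 1.86 CPM against 10.8, 11.2, 12.3, 7.7 and 9.05 CPM (2.45, SE 0.42, adjusted p = 0.0473, edgeR). Ldhb lost the call when any one of 377, 378 and 383 was left out (edgeR adjusted p up to 0.109). Of 22 TGF-beta response genes Bmp4 was called lower, and the primary was highest for 9 and lowest for 6. It was lowest and highest for 8 and 5 of 21 Wnt and Notch genes, 4 and 3 of 22 YAP targets, 4 and 5 of 24 fatty acid genes, 9 and 7 of 32 lysosome and autophagy genes, 3 and 7 of 26 histone genes, 4 and 9 of 41 chromatin modifiers, and 5 and 7 of 36 cytoskeleton genes. These 7 lists, the immediate early genes, the ribosomal genes and oxidative phosphorylation had 0 calls by edgeR. Among the 2 members of highest mean CPM in each of these lists, the primary was also lowest for Fads3, a desaturase (289 against 375 to 702 CPM), and the linker histone gene H1f0 (785 against 843 to 1304 CPM). It was highest for Prmt1, an arginine methyltransferase (709 against 578 to 650.2 CPM), and Hdac2, a histone deacetylase (498 against 237 to 433 CPM). It lay within the range for Jag1, a Notch ligand (1628 against 717 to 2635 CPM), and for Cyr61 and F3 (479.7 against 385 to 779.7 CPM and 392 against 315 to 760.0 CPM). The desaturase gene Scd2 (429.9 against 490.2, 277, 238, 70.6 and 79.5 CPM) was far lower in lines 382 and 383 than in the other libraries. The remaining members of this kind, Cd63, Ctsl, H3f3b, Actb, Pfn1, Rpl4 and Atp5b, had the primary within the range. DESeq2 called 5 Wnt and Notch, 2 fatty acid and 4 immediate early genes, and 0 in the other lists without an edgeR call (4.07% of all genes). At an unadjusted p under 0.05 edgeR gave 7 Wnt and Notch, 2 YAP, 5 fatty acid and 7 lysosome and autophagy genes (14.5% of all genes). It gave 4 histone, 0 chromatin, 1 cytoskeleton, 8 immediate early, 2 ribosomal and 1 oxidative phosphorylation genes.

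Y-linked genes separated the primary from every metastatic line. The table holds 3 such genes, and all 3 were called lower. Eif2s3y, a translation factor gene, had 395 counts in the primary library and none in the 5 lines, which puts it at least 551-fold lower with the same floor over the 5 lines (adjusted p = 0.0138, edgeR). Ddx3y, an RNA helicase gene, had 325 counts and 1 count, in line 383, a ratio of 1359 (95% counting interval from 242 to 53840, adjusted p = 0.000398, edgeR). Uty, a histone demethylase gene, had 77 counts and none, so at least 107-fold lower (adjusted p = 0.0479, edgeR). Its call was lost when either 377 or 378 was left out (edgeR adjusted p up to 0.0809). All 5 lines had 0 Uty counts, so that loss shows no difference between the lines in this gene. The calls for Eif2s3y and Ddx3y held without any one line. These genes were named after their values were seen.

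Genes of some chromosomes were shifted together. Over genes with a mean of at least 5 CPM, the median log2 ratio of each line to the primary was taken by chromosome, relative to all genes, with chromosomes from gene symbols. It was at least 0.1 lower in all 5 lines for chromosomes 5, 13 and 16, with means over the lines of -0.16 ± 0.03, -0.20 ± 0.05 and -0.21 ± 0.02 (SD, n = 5). It was at least 0.1 higher in all 5 for chromosome 17, at 0.21 ± 0.02 (SD, n = 5). All 5 ratios share the 1 primary library, so the agreement of the lines is not independent evidence of a shift in them. H2-K1, Epcam and Crb3, among the genes called higher, lie on chromosome 17, with log2 fold changes of 1.71, 1.83 and 4.18, against the 0.21 of the chromosome. Distances between libraries were taken as the median absolute log2 ratio over genes tested. The primary was 0.30 to 0.47 from the 5 lines, farthest from line 383. The metastatic lines were 0.20 (377 and 378) to 0.44 (376 and 383) from each other. Line 376 was nearer to the primary (0.35) than to lines 382 (0.42) and 383 (0.44). Lines 382 and 383 were 0.42 and 0.47 from the primary and 0.22 from each other. The ranges of these distances thus overlapped.

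**Figure D4:**
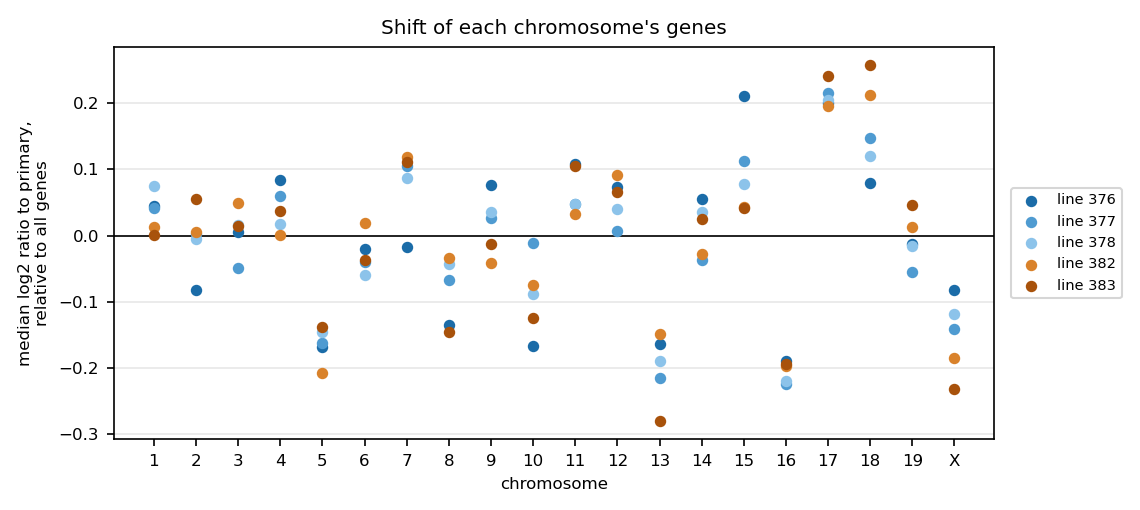
Median log2 ratio of each metastatic line to the primary over the genes of each chromosome with a mean of at least 5 CPM, relative to all genes. Points are lines (blue shades 376 to 378, orange shades 382 and 383). All 5 points lie above 0.1 for chromosome 17 and below -0.1 for chromosomes 5, 13 and 16.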

How the data were processed

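RNA was extracted with an RNAqueous kit and 1 ng was used with SMART-Seq v4 and ThruPLEX chemistry, per the labels' protocols. The authors deposited a table of raw read counts per gene symbol, 10 columns of which 6 were used and 4 columns were not used here. Software listed in the submitters' processing notes is STAR 2.5, Cufflinks 2.2.1 and DESeq2, with build mm9 and no roles, and the annotation and strand setting behind the counts are unknown here. Of 12824 rows, 18 carried a bare number for a name (0.332% to 0.491% of the counts per library) and were left out, leaving 12806 genes. Of these 12765 matched a GENCODE or RefSeq symbol, 29 a synonym and 12 neither, and 12785 could be placed on a chromosome.

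From the counts, genes were filtered with filterByExpr, scaled by TMM, and tested with edgeR 4.0.16 (robust quasi-likelihood fit, R 4.3.3), 5 metastatic libraries against 1, with 4 residual degrees of freedom and a common dispersion of 0.0591. Totals of 11644562 to 15317280 counts set the counting error, and intervals and the floor of 3 counts cover counting error only. The range rule compared the primary CPM with the lowest and highest of the 5 lines. Log2 ratios of single lines used CPM with a prior count of 2. DESeq2 1.42.0 and voom of limma 3.58.1, other scalings, other filters, thinned counts, leaving out each line and subsets of lines were the alternatives. The fit was tested on simulated data. No pair of libraries was identical.

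The genes named by rule were Trp53, Birc5, the 12 called genes each way with the largest gap between the primary and the nearest line (mean of at least 5 CPM, gene models without a proper name left out) and, per list, up to 4 called members or else the 2 of highest mean CPM. 1 gene that this rule names is not reported here. The genes, the 33 gene lists and the 6 marker lists were chosen with earlier results of these data known. Promoter sequences are RefSeq's of build GRCm38.p6, a different build from mm9, and were matched by symbol.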

Additional observations from a re-analysis of the deposited data

Results flagged for a closer look

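Among 163 named genes, 3 had a metastatic line standing apart from the other 4 by Dixon's test, which chance does in about 1 of 20 groups. Cxcl5 reached 142 CPM in line 376, against 3.38 to 15.2 CPM in the other lines. Btc, a ligand of the epidermal growth factor receptor, reached 5.36 CPM in line 382, against 2.64 to 3.19 CPM. Ddx3y stood at 0.0736 CPM in line 383, which is 1 count, against 0 in the others. A lone count among zeros always meets this test, so that flag carries no information.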

How the results depend on the processing

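The number of genes called depended mostly on the lines and the tool. Of 80 calls (31 higher, 49 lower), leaving out 1 line gave 14 to 234 calls (6 to 136 higher, 8 to 98 lower), lines 376, 377 and 378 alone gave 148 (77 higher), and lines 382 and 383 alone gave 3559 (1819 higher, 1740 lower). DESeq2 gave 510 (342 and 168), limma voom 17 higher and 77 lower, genes with a mean of at least 5 CPM 33 (20 and 13), and a test against a 1.5-fold change 39, 18 of them lower. The causes were not tested. Other scalings, no low-count filter, no robust fit and thinning to the smallest library stayed within 1.5 times the main counts. The 1474 genes outside the range and 2-fold apart became 600 with a mean of at least 5 CPM, 2323 with lines 382 and 383 alone, 2921 at 1.5-fold and 489 at 4-fold, and 1435 to 1656 without any 1 line. Besides the calls whose loss stands beside the gene, limma voom did not call Ldhb, Slpi and Tcf7l2, the 5 CPM minimum ended the calls of Ldhb, Spint2, Slpi, Ccnd2 and Tcf7l2, and upper-quartile scaling that of Zhx1 (adjusted p = 0.0545, edgeR). DESeq2's size factors ended those of Spint2, Ccnd2 and Tcf7l2, the fit without the robust option those of Spint2 and Tcf7l2, thinning those of Nppb, Bmp4, Slpi, Igfbp5 and Uty, and the test against a 1.5-fold change those of 15 named genes. The chromosome 16 median was -0.18 over all genes tested. With lines 376, 377 and 378 alone the log2 fold change was 0.0013 for Birc5, -0.16 for Cyr61, -0.18 for F3, -0.083 for Myc, 0.076 for Atp5b, -0.033 for Ctsl, -0.063 for H3f3b, 0.088 for Krt5, -0.10 for Trp63 and 0.033 for Acat2. With lines 382 and 383 alone it was 0.0038 for Perp, -0.11 for Cdca8, 0.49 for Jag1, 0.14 for Cd63, -0.042 for Rpl4, -0.027 for Pfn1, 0.22 for Slc7a3 and -1.41 for Cxcl5. Without any 1 line it ran from -0.32 to 0.13 for Jag1, -0.062 to 0.048 for Cd63, -0.10 to 0.049 for Actb, -0.032 to 0.11 for Pfn1, -0.81 to 1.49 for Cxcl5, -0.064 to 0.18 for Trp63 and -0.076 to 0.035 for Mdm2. Cd63 was 0.0060 with DESeq2 or its size factors and 0.0018 with upper-quartile scaling, and Cxcl5 was -0.11 with limma voom. No paired analysis was possible because there was 1 primary library for the 5 metastatic lines.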
